A study of Mus musculus with 8 samples.

Results

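The genes described here are Trp53, which encodes the transcription factor p53, and 9 of its well-known target genes: Cdkn1a, Mdm2, Ccng1, Trp53inp1, Bbc3, Bax, Phlda3, Sesn2 and Zmat3. They were taken as a list of symbols, and all 10 were found among the 17724 gene identifiers used. All 10 were also among the 11266 genes that passed the filter on low values. Total RNA had been sequenced from E14TG2a cells, a feeder-free mouse embryonic stem cell line of the 129/Ola strain. WT cells were compared with 3 knockout groups made with CRISPR/Cas9 for an enhancer each, named E1-KO, E2-KO and E3-KO. All 4 groups grew in serum with leukaemia inhibitory factor (LIF) and the inhibitors CHIR99021 (of GSK3) and PD0325901 (of MEK), and each had 2 biological replicates, so there were 8 samples. The stated interest of the study was how promoters and enhancers associate to shape the functions of Sox2. The labels used here give neither the position of the deleted enhancers nor whether a knockout group came from 1 clone, and no edited cells with intact enhancers were analysed here. Each comparison with WT therefore cannot be told apart from any effect of Cas9 cutting, of clonal growth or of separate culture. Differences between knockout groups likewise cannot be told apart from those of clonal growth or separate culture.

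p53 is kept low in unstressed cells by Mdm2, a ubiquitin ligase that marks it for destruction and is itself a p53 target, so the pair form a feedback loop. After DNA damage, such as a cut by Cas9, p53 is stabilised and switches on genes for cell cycle arrest, apoptosis, repair and antioxidant defence. Because of this, Cas9 editing and outgrowth of single cells can favour cells with weak p53 activity, and mouse embryonic stem cells are known for carrying ample p53. Since p53 is controlled largely at the level of the protein, the RNA of its targets is the usual readout of its activity, and the RNA of Trp53 itself is not.

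As background on how p53 could reach these genes, promoter windows from RefSeq (build GRCm38.p6) were searched for the p53 response element. The element is a pair of 10-base half-sites, RRRCWWGYYY, joined by 0 to 13 bases, and each half-site reads the same on both strands. R is A or G, W is A or T, and Y is C or T. The C and G of the core were required, and any other departure counted as a mismatch. The search used the 250 bases before each annotated start, and 8 of the 10 genes were matched by symbol (Trp53inp1 and Zmat3 were not). With at most 1 mismatch over the 2 half-sites, the element was found before Cdkn1a and Ccng1, against 0.505% of the 32851 windows of all genes. With at most 2 mismatches it was also found before Bax (3.34% of all windows). With at most 3 it was also found before Bbc3 and Trp53, and in 4258 of the 32851 windows of all genes. At most 1 mismatch was met by 166 windows and at most 2 by 1097, so a match with 3 sets a gene apart far less. Bbc3 also had 3 windows searched, which gave it more chances of a match. Whether the matches of Bbc3 and Trp53 exceeded this background was not tested. A match is a description of the letters and does not show binding. The matches of 4 target genes are given 5′ to 3′ on the gene's own strand, as those of the target genes with a match of at most 3 mismatches. Capitals mark the matched half-sites, and matches that overlap run together.
Cdkn1a, upstream start, chr17:29090876-29090977, plus strand: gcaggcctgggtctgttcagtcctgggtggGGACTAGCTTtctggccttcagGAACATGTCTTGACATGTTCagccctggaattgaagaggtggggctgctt
Ccng1, chr11:40755432-40755516, minus strand: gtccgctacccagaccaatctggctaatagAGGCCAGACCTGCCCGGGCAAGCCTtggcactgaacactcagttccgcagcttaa
Bax, chr7:45467049-45467144, minus strand: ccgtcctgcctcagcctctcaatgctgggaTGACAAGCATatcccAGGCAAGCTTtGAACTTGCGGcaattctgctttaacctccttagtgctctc
Bbc3, first start, chr7:16309456-16309535, plus strand: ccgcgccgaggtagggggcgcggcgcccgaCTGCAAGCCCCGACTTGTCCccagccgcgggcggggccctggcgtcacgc
The Cdkn1a window is that of a start 2790 bases upstream of the other start RefSeq lists for the gene. The best Cdkn1a match had 0 mismatches, with 12 bases between its half-sites. The Ccng1 match had 1 mismatch, that of Bax 2 and that of Bbc3 3.

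Values were taken as FPKM (fragments scaled to transcript length and to the total of the library), so levels can be set side by side between genes. Fold changes are log2 changes of FPKM + 1, which understates the change of low genes. A gene was called when its adjusted p-value from limma-trend, fitted on all 8 samples and adjusted by Benjamini-Hochberg over all genes tested, was under 0.05. Deposited values summed to between 454974 and 532007 FPKM per sample, and 11072 to 11259 genes had at least 1 FPKM. Absolute depth was unknown, so no counting interval can be given. All 8 markers of embryonic stem cells on the list used were expressed, with a summed level of 2031 to 2690 FPKM. The sum hides changes of single markers. Tfcp2l1, Dppa5a and Sox2 were called lower in all 3 knockouts, Esrrb in E1-KO and E3-KO, and Tdgf1 in E3-KO. Pou5f1 and Zfp42 were called higher in E2-KO, and Nanog was not called in any knockout. Of 7 markers of fibroblasts, 6 were below 1 FPKM in every sample. The seventh, Thy1, had 0.70 to 0.84 FPKM in WT and 1.23 to 2.85 FPKM in the knockouts. Col1a1 was also higher on average in E1-KO, E2-KO and E3-KO (0.82, 0.98 and 0.66 FPKM) than in WT (0.45 FPKM). The summed fibroblast level was 1.14 to 1.57 FPKM in WT and 2.4 to 3.81 FPKM in the knockouts, a difference whose part in the results was not tested. All 4 measured markers of endoderm were below 1 FPKM in every sample. Values of bulk RNA cannot tell fewer cells that express a gene from less RNA of it per cell.

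In WT cells the order of the mean levels was Trp53 (132.7 ± 0.663 FPKM), Cdkn1a (123.7 ± 8.78), Bax (113.7 ± 10.2), Ccng1 (103.9 ± 2.38), Trp53inp1 (89.13 ± 0.587), Mdm2 (53.5 ± 0.811), Sesn2 (34.25 ± 0.266), Phlda3 (32.21 ± 2.44), Zmat3 (25.04 ± 0.811) and Bbc3 (20.37 ± 0.392; all SD, n = 2). The WT samples of Cdkn1a and Bax overlapped in level, and those of the other neighbours in this order did not. All 10 genes, pro-apoptotic ones included, thus had clear RNA levels in unedited cells.

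Trp53 RNA was higher in every knockout. Its level was 132.3 and 133.2 FPKM in the WT samples. E1-KO had 174.5 and 173.1, E2-KO 175.4 and 179.9, and E3-KO 187.3 and 165.3 FPKM. Every knockout sample exceeded both WT samples, and the E3-KO samples lay on either side of those of E1-KO and E2-KO. The log2 fold changes against WT were 0.39, 0.42 and 0.40 in E1-KO, E2-KO and E3-KO (standard error 0.097 each), limma-trend adjusted p = 0.0139, 0.0105 and 0.00933. After quantile normalization the rises in E1-KO and E2-KO were 0.27 and 0.28 and no longer passed (limma-trend adjusted p = 0.0562 and 0.054). The call in E1-KO was also lost when any 1 of its 4 samples was left out (limma-trend adjusted p = 0.0755 to 0.0907), and those in E2-KO and E3-KO when either WT replicate was left out (0.0625 to 0.073).

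Mdm2, the chief inhibitor of p53 and part of its feedback loop, changed in E3-KO only among the 3 comparisons with WT. It stood at 54.07 and 52.92 FPKM in WT, against 51.94 and 47.35 (E1-KO), 54.44 and 50.7 (E2-KO) and 85.89 and 89.67 (E3-KO). Both E3-KO samples were far above the other 6, which spanned 47.35 to 54.44 FPKM. In E3-KO the log2 fold change was 0.70 (standard error 0.0943, limma-trend adjusted p = 0.000611), or 1.64 times the WT mean. In E1-KO it was -0.11 (95% interval -0.32 to 0.11) and in E2-KO -0.03 (95% interval -0.24 to 0.19), a sign that turned under median-ratio scaling (0.05). The direct differences of E3-KO from E1-KO and from E2-KO also passed (0.81 and 0.73, limma-trend adjusted p = 0.000595 and 0.00199).

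**Figure D1:**
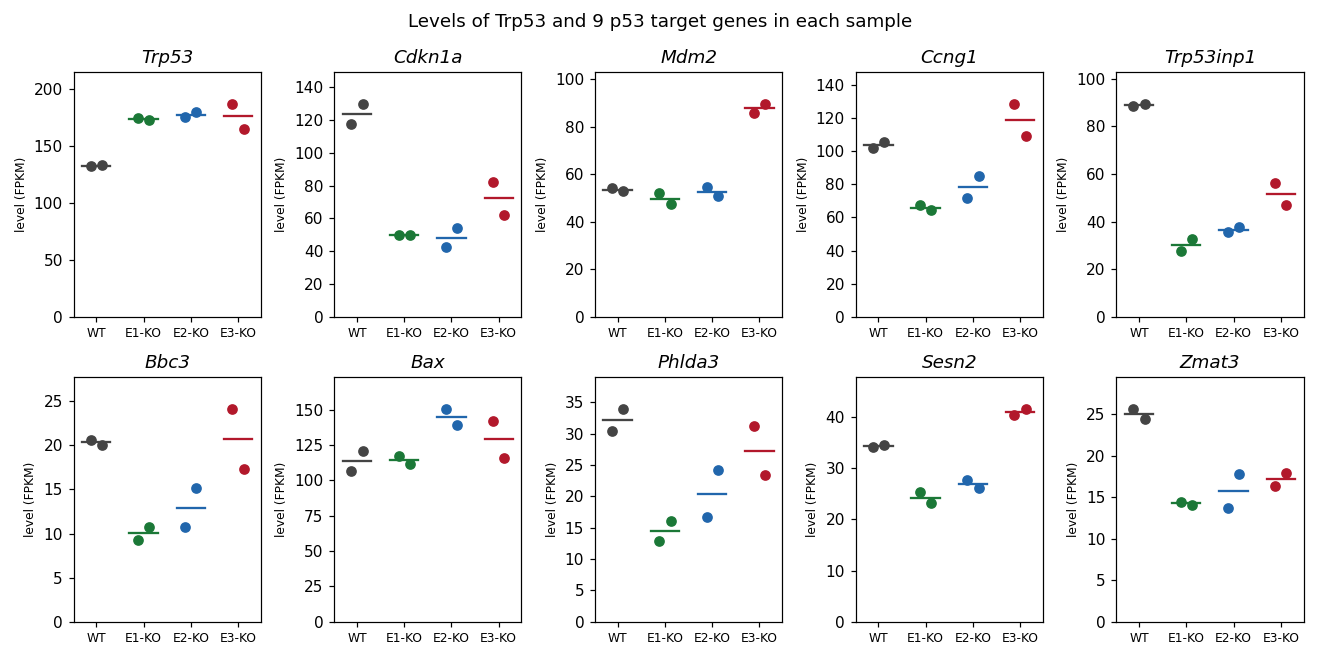
Level in FPKM (y axes, from 0) of Trp53 and 9 p53 target genes in each of the 8 samples, by group (x axes). Points are samples and lines are group means; Cdkn1a, Trp53inp1 and Zmat3 are below both WT samples in all 6 knockout samples, while Trp53 is above them and Mdm2 is raised in E3-KO, at 85.89 and 89.67 FPKM.

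Cdkn1a encodes p21, the inhibitor of cyclin-dependent kinases through which p53 halts the cell cycle, and it fell in all 3 knockouts. The WT samples had 117.5 and 129.9 FPKM, against 49.75 and 49.99 (E1-KO), 42.21 and 53.76 (E2-KO) and 82.1 and 62.27 (E3-KO). Every knockout sample was below both WT samples, and the E3-KO samples lay between WT and the other knockouts. The WT mean was 2.48 times that of E1-KO, 2.58 times that of E2-KO and 1.71 times that of E3-KO. The log2 fold changes were -1.29, -1.36 and -0.78 (standard error 0.153 each, limma-trend adjusted p = 0.000488, 0.00045 and 0.00358). A second row with the Cdkn1a identifier, at 0.671 to 2.08 FPKM, was set aside because it stood out of place in the order of the files.

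Ccng1 encodes cyclin G1, a p53 target that acts back on Mdm2. Its levels were 102.2 and 105.6 FPKM in WT, against 67.51 and 64.45 (E1-KO), 72 and 85.22 (E2-KO) and 128.9 and 109.4 (E3-KO). All 4 samples of E1-KO and E2-KO were below WT, and both E3-KO samples were above it. The falls in E1-KO (-0.65) and E2-KO (-0.40, both standard error 0.117) passed limma-trend adjusted p = 0.00324 and 0.0261. The E3-KO value of 0.19 did not pass (limma-trend adjusted p = 0.213), except under median-ratio scaling (0.36, limma-trend adjusted p = 0.0296). Under the same scaling the fall in E2-KO did not pass (-0.32, limma-trend adjusted p = 0.0525), nor did it without E2-KO replicate 1, the lower of the pair (-0.28, limma-trend adjusted p = 0.121), or without either WT replicate (0.0972 and 0.137).

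Of the genes for cell death, Trp53inp1, whose nuclear protein aids p53 in turning on apoptosis and also takes part in autophagy, showed the largest change of the 10 in E1-KO. Its WT samples had 88.72 and 89.55 FPKM, those of E1-KO 27.71 and 32.75, those of E2-KO 35.48 and 37.7, and those of E3-KO 56.17 and 46.85. The 4 groups did not overlap, with E1-KO lowest and WT highest. The WT mean was 2.95, 2.44 and 1.73 times the means of E1-KO, E2-KO and E3-KO. The log2 fold changes were -1.53, -1.26 and -0.79 (standard error 0.12 each, limma-trend adjusted p = 8.83e-05, 0.000235 and 0.00113).

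Bbc3 encodes PUMA, a BH3-only protein that sets off apoptosis at the mitochondrion. It was measured at 20.65 and 20.09 FPKM in WT, against 9.31 and 10.8 (E1-KO), 10.8 and 15.1 (E2-KO) and 24.1 and 17.4 (E3-KO). E1-KO and E2-KO lay below WT, and the E3-KO samples stood on either side of it. Bbc3 fell in E1-KO by 0.95 and in E2-KO by 0.63 on the log2 scale (standard error 0.185 each, limma-trend adjusted p = 0.0044 and 0.0265). In E3-KO the value was 0.01 (95% interval -0.41 to 0.43). The E2-KO call was lost after quantile normalization (limma-trend adjusted p = 0.0554), with all genes above 0 tested (0.0649) and without E2-KO replicate 1 or either WT replicate (0.103 to 0.155).

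Bax, which forms the pores in the mitochondrial membrane, was, like Mdm2, not called lower in any knockout. Its samples had 106.5 and 120.9 FPKM in WT, against 117 and 111.2 (E1-KO), 150.4 and 139.2 (E2-KO) and 141.8 and 115.9 (E3-KO). Only E2-KO was clear of the WT samples, above them. The log2 fold changes were 0.01 in E1-KO (95% interval -0.27 to 0.28, and -0.09 after quantile normalization), 0.35 in E2-KO (limma-trend adjusted p = 0.0507) and 0.18 in E3-KO (95% interval -0.10 to 0.45). The E2-KO value passed under median-ratio scaling (0.43, limma-trend adjusted p = 0.0154) and, at 0.0499, with a filter of at least 5 FPKM, and that of E3-KO passed under median-ratio scaling (0.35, limma-trend adjusted p = 0.0308).

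Phlda3 encodes a small protein that holds back the survival kinase Akt. It had 30.49 and 33.94 FPKM in WT, against 12.9 and 16.2 (E1-KO), 16.7 and 24.1 (E2-KO) and 31.3 and 23.3 (E3-KO). The knockout groups E1-KO and E2-KO were below WT, while E3-KO overlapped it. Falls of -1.10 in E1-KO and -0.65 in E2-KO (standard error 0.195 each) passed, limma-trend adjusted p = 0.00289 and 0.0288, and the value in E3-KO was -0.24 (95% interval -0.68 to 0.20). The E2-KO call was lost with all genes above 0 tested (limma-trend adjusted p = 0.0719) and without E2-KO replicate 1 or either WT replicate (0.0793 to 0.169).

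The last pair are a stress sensor and an RNA-binding protein. Sesn2 encodes sestrin 2, which restrains mTORC1 and helps against oxidants. Its levels were 34.06 and 34.44 FPKM in WT, against 25.26 and 23.24 (E1-KO), 27.61 and 26.05 (E2-KO) and 40.44 and 41.51 (E3-KO). The groups did not overlap: E1-KO and E2-KO were below WT and E3-KO above it. The log2 fold changes were -0.48, -0.34 and 0.25 (standard error 0.0942 each), limma-trend adjusted p = 0.00455, 0.0212 and 0.0554. The E3-KO value passed under quantile normalization (0.36), median-ratio scaling (0.42), scaling without the 50 highest genes (0.31) and with all genes above 0 tested (limma-trend adjusted p = 0.013, 0.00738, 0.0258 and 0.0438). The fall in E2-KO did not pass under median-ratio scaling (-0.26, limma-trend adjusted p = 0.0565) or without E2-KO replicate 2 or either WT replicate (0.0652 to 0.117).

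Zmat3 encodes a zinc-finger protein that binds RNA and lies, like Sox2, on chromosome 3. It stood at 25.62 and 24.47 FPKM in WT, against 14.4 and 14.1 (E1-KO), 13.8 and 17.8 (E2-KO) and 16.3 and 18 (E3-KO). The 6 knockout values all lay under the WT pair. The log2 fold changes were -0.77, -0.64 and -0.52 (standard error 0.13 each, limma-trend adjusted p = 0.00234, 0.00582 and 0.0108). The E3-KO fall did not pass under quantile normalization or median-ratio scaling (-0.35 and -0.36, limma-trend adjusted p = 0.0669 and 0.0634), or without E3-KO replicate 1 or either WT replicate (0.0501 to 0.0684).

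**Figure D2:**
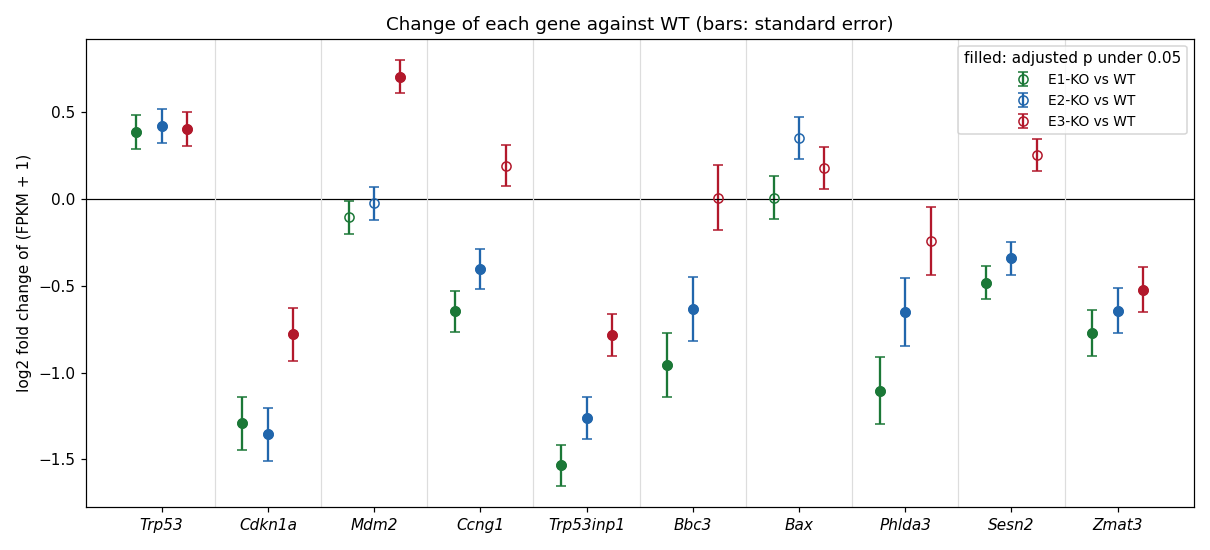
Log2 fold change of FPKM + 1 against WT (y axis) for each of the 10 genes (x axis) in E1-KO, E2-KO and E3-KO; bars are standard errors and filled points had an adjusted p under 0.05. In E1-KO and E2-KO 7 genes are filled below 0, and in E3-KO 3 are, with Mdm2 at 0.70.

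In counts, 7 of the 10 genes fell and 1 rose in E1-KO, where 38.0% of all tested genes were called in either direction and 23.0% as lower. The median log2 fold change of the 10 was -0.71, beside -0.06 over all genes tested. In E2-KO the same counts were 7 lower and 1 higher, with 36.1% of all genes called and 22.0% lower, and a median of -0.52 beside -0.08. E3-KO had 3 lower (Cdkn1a, Trp53inp1 and Zmat3) and 2 higher (Trp53 and Mdm2), at a background of 44.7% called, 30.8% as lower. The median of the 10 was 0.09 in E3-KO beside -0.15 over all genes. The scale of the samples matters for values near 0: median-ratio scaling moved the median of all genes in E3-KO from -0.15 to 0.00, and that of the 10 genes from 0.09 to 0.26. Under that scaling 5 of the 10 were higher and 2 lower in E3-KO, and 2 higher and 5 lower in E2-KO. After quantile normalization the counts were 0 higher and 7 lower in the E1-KO group. E2-KO then had 0 and 6 and E3-KO 3 and 2. Here and in the paragraphs that follow, shares of all genes are those of the fit described above. Counts under other settings therefore have no background of their own beside them. Without any 1 replicate of the groups compared, fewer of all genes were also called in each knockout group against WT. The same held for E3-KO against E1-KO and against E2-KO. A lower count of listed genes in such a fit thus does not by itself set those genes apart. The number called in E2-KO was 5 without E2-KO replicate 1 and 3 without either WT replicate, and in E3-KO it was 3 without either WT replicate.

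When the mean of the 3 knockout groups was set against WT, 6 of the 10 genes were lower and 1, Trp53, was higher, at a background of 47.0% of genes called and 30.3% lower. Trp53inp1 was lowest relative to WT (-1.19), followed by Cdkn1a (-1.14), Phlda3 (-0.67), Zmat3 (-0.65), Bbc3 (-0.53) and Ccng1 (-0.29). Their limma-trend adjusted p-values were between 6.42e-05 (Trp53inp1) and 0.0349 (Ccng1). Without WT replicate 2 the number called was 4. Under median-ratio scaling 3 were higher and 5 lower, Ccng1 (-0.18, limma-trend adjusted p = 0.141) being no longer called, and the call of Bbc3 was lost after quantile normalization (-0.39, limma-trend adjusted p = 0.0586). All 6 edited samples were below both WT samples for 3 of the 10 genes (Cdkn1a, Trp53inp1 and Zmat3) and above them for 1 (Trp53). Over all genes tested these shares were 28.5% and 15.3%, so the counts were near the background.

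The knockouts were then compared directly. E3-KO was higher than E1-KO for 7 of the 10 genes and lower for none, at a background of 25.8% of genes called, 9.41% higher and 16.4% lower. The largest difference was that of Bbc3 (0.96, limma-trend adjusted p = 0.00596), followed by Phlda3 (0.86), Ccng1 (0.84), Mdm2 (0.81), Trp53inp1 (0.75), Sesn2 (0.73) and Cdkn1a (0.51). Against E2-KO, 6 were higher in E3-KO and none lower, where 15.6% of all genes were called, 5.48% higher and 10.1% lower: Mdm2 (0.73), Bbc3 (0.64), Ccng1 (0.59), Sesn2 (0.59), Cdkn1a (0.58) and Trp53inp1 (0.48). The medians of the 10 genes were 0.74 and 0.53, beside -0.10 and -0.09 over all genes tested. For Trp53 itself E3-KO differed by 0.02 from E1-KO (95% interval -0.20 to 0.24) and by -0.01 from E2-KO (95% interval -0.23 to 0.21), which became 0.08 to 0.10 under the 3 other scalings. Counts fell to 4 without E1-KO replicate 1 in the comparison with E1-KO, and in that with E2-KO to 2 without E2-KO replicate 1, 3 without E3-KO replicate 1, 3 with all genes above 0 tested and 2 when the 4 samples were fitted alone. The Cdkn1a, Bbc3 and Trp53inp1 differences from E2-KO and that of Cdkn1a from E1-KO were lost in several settings. For Trp53inp1 these included all genes above 0 tested (limma-trend adjusted p = 0.053) and the groups fitted alone (0.0983). The Ccng1 difference from E2-KO was also lost with the groups fitted alone (limma-trend adjusted p = 0.0684). The Phlda3 difference from E1-KO was 0.71 without E1-KO replicate 1 and 0.66 without E3-KO replicate 1, and was called in neither fit. That of Bbc3 from E1-KO was 0.87 without E1-KO replicate 1 and was also not called there. With all genes above 0 tested, the limma-trend adjusted p of Cdkn1a was 0.0759 against E1-KO and 0.0781 against E2-KO, and that of Bbc3 against E2-KO 0.100. Without E3-KO replicate 1, the higher of that pair for both genes, these values were 0.185, 0.13 and 0.182.

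Between E2-KO and E1-KO, 0 of the 10 genes passed in limma-trend, at a background of 0.834% of genes called. The unadjusted p was under 0.05 for 3 of them, each higher in E2-KO, where 18.6% of all genes had such a p, 9.13% higher and 9.42% lower: Bax (0.34, 95% interval 0.07 to 0.61), Phlda3 (0.45, 0.01 to 0.89) and Trp53inp1 (0.27, 0.00 to 0.54). For Cdkn1a the difference was -0.06 (95% interval -0.41 to 0.28).

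**Figure D3:**
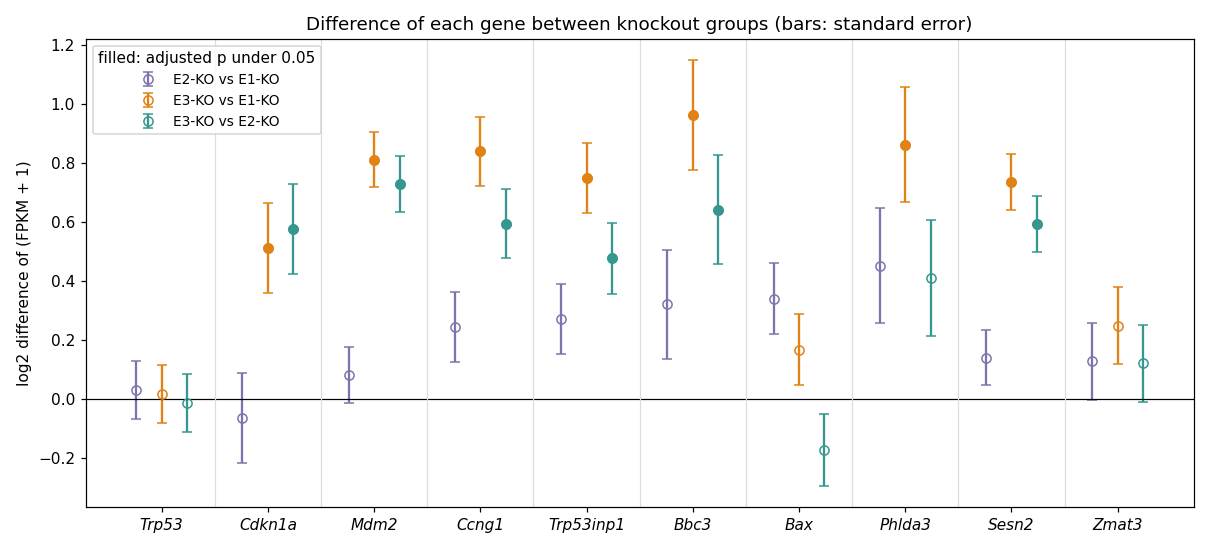
Log2 difference of FPKM + 1 between knockout groups (y axis) for each of the 10 genes (x axis); bars are standard errors and filled points had an adjusted p under 0.05. E3-KO is above E1-KO for 7 genes and above E2-KO for 6, and no point of E2-KO against E1-KO is filled.

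Other known p53 targets, 49 genes in 3 lists, were examined in the same fit, and 44 of them passed the filter. The lists were chosen with earlier results of these data known, so their shares are a description and not a test. In E1-KO 22 fell and 1 rose, in E2-KO 19 fell and 2 rose, and in E3-KO 15 fell and 10 rose. As lower, these are 50%, 43.2% and 34.1% of the 44, beside 23.0%, 22.0% and 30.8% of all genes tested, so the share in E3-KO was near the background. As higher, 15.0%, 14.1% and 13.9% of all genes were called. Their medians were -0.44, -0.25 and -0.16, beside -0.06, -0.08 and -0.15 over all genes. The E3-KO median was 0.03 after quantile normalization, with 13 higher and 9 lower, and -0.00 under median-ratio scaling, with 13 higher and 8 lower. Directly compared, E3-KO was above E1-KO for 19 of the 44 and below for 4, where 9.41% of all genes were higher and 16.4% lower. It was above E2-KO for 10 and below for 3, where 5.48% of all genes were higher and 10.1% lower. Without 1 library several of these counts were lower, and fewer of all genes were called as well. Chromosome 6 as a whole was lower in E3-KO, with a median of -0.62 over its 536 tested genes beside -0.13 elsewhere, and it carries Gadd45a, Bid, Xpc and Tigar of these lists. With its genes left out, 10 of the remaining 40 targets fell and 10 rose in E3-KO. Against E1-KO and E2-KO the chromosome 6 medians of E3-KO were -0.59 and -0.58, beside -0.08 and -0.08 elsewhere. None of the 10 main genes lies on chromosome 6, and what part its change had in their differences was not tested.

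Among targets for arrest and feedback (12 tested), 6 fell and 1 rose in E1-KO, 5 fell and 2 rose in E2-KO, and 6 fell and 5 rose in E3-KO. The shares lower were 50%, 41.7% and 50%, beside 23.0%, 22.0% and 30.8% of all genes, and 15.0%, 14.1% and 13.9% of all genes were higher. In E3-KO only 2 fell without E3-KO replicate 2 or WT replicate 2, only 2 rose without E3-KO replicate 1 or WT replicate 1, and 3 fell under median-ratio scaling. Plk2, a polo-like kinase induced by stress, had 16.1 and 19.9 FPKM in WT, against 6.07 and 7.34 (E1-KO), 8.48 and 9.94 (E2-KO) and 29.3 and 23.3 (E3-KO). It thus fell in E1-KO (-1.30) and E2-KO (-0.89) and rose in E3-KO (0.52, limma-trend adjusted p = 0.0256). Btg2, an antiproliferative gene, fell by 0.78 in both E1-KO and E2-KO. Psrc1 fell in all 3 groups (-0.73, -0.66 and -0.46). Gadd45a, a growth arrest and DNA damage gene on chromosome 6, fell in E1-KO (-0.87) and E3-KO (-0.88), and Tob1, another antiproliferative gene, in E3-KO (-0.66). Plk3 instead rose in all 3 (0.72, 1.01 and 0.90).

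Of the 14 tested apoptosis targets, 6 fell in E1-KO and 4 in E2-KO with none rising, while 2 fell and 3 rose in E3-KO (6 under median-ratio scaling, and 1 without E3-KO replicate 1 or WT replicate 1). The shares lower were 42.9%, 28.6% and 14.3%, beside 23.0%, 22.0% and 30.8% of all genes, so that of E2-KO was near the background and that of E3-KO below it. As higher, 15.0%, 14.1% and 13.9% of all genes were called. In E2-KO 2 fell without either WT replicate, and 2 rose under median-ratio scaling. Pmaip1, which encodes the BH3-only protein NOXA, had 13.6 and 12.4 FPKM in WT, against 3.82 and 4.6 (E1-KO), 4.03 and 5.93 (E2-KO) and 14.3 and 12.7 (E3-KO). E3-KO overlapped WT, and the other knockouts were far below both. Its log2 fold changes in E1-KO and E2-KO were -1.43 and -1.24, and E3-KO was above them by 1.48 and 1.30 (limma-trend adjusted p = 0.000548 and 0.00202). Perp, a membrane protein of desmosomes that aids p53-driven death, fell in E1-KO (-1.22) and rose in E3-KO (1.04), where its replicates were apart at 31.8 and 18.3 FPKM. Apaf1, the core of the apoptosome, fell in all 3 (-1.17, -0.99 and -0.79). Trp53i11 and Ei24 fell in E1-KO (-0.80 and -0.61) and E2-KO (-0.43 and -0.40). Bid fell in E3-KO only among these comparisons (-1.33), and it lies on chromosome 6.

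Among targets for repair and metabolism (18 tested), 10 fell in E1-KO and 10 in E2-KO with none rising, and 7 fell and 2 rose in E3-KO. The shares lower were 55.6%, 55.6% and 38.9%, beside 23.0%, 22.0% and 30.8% of all genes, and 15.0%, 14.1% and 13.9% of all genes were higher. The E3-KO counts were near the background. Without either WT replicate 5 fell in E1-KO, without E2-KO replicate 1 6 fell in E2-KO, and under quantile normalization 3 fell and 3 rose in E3-KO. Ephx1, an epoxide hydrolase, went from 26.7 and 25.8 FPKM in WT to 8.64 and 7.83 (E1-KO), 8.48 and 11.1 (E2-KO) and 25.6 and 20.2 (E3-KO). Its falls were -1.56 and -1.35, and the E3-KO value of -0.20 did not pass (limma-trend adjusted p = 0.317). Dcxr, an enzyme of xylulose metabolism, fell in E1-KO (-1.71) and E2-KO (-1.28), and its E3-KO replicates were far apart at 40.7 and 20.2 FPKM. Abhd4 fell in all 3 (-1.09, -0.82 and -0.42), as did Ddb2, which recognises ultraviolet damage (-0.73, -1.06 and -1.28). Ddit4, an inhibitor of mTORC1, fell in E1-KO (-0.66) and E2-KO (-0.96). Sesn1, the sister gene of Sesn2, rose in E3-KO (0.78) alone among these comparisons.

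The genes that govern p53 or belong to its family were mixed, with 3 higher and 7 lower of 24 tested in the E1-KO group. E2-KO had 3 and 7 and E3-KO 2 and 8 (5 and 4 under median-ratio scaling). The shares lower were 29.2%, 29.2% and 33.3%, beside 23.0%, 22.0% and 30.8% of all genes, and 15.0%, 14.1% and 13.9% of all genes were higher, so these counts were near the background. Without WT replicate 2 the lower genes numbered 2, 4 and 4. Mdm4, the partner of Mdm2 that blocks p53 on its promoters, had 64.2 and 61.2 FPKM in WT, against 38.8 and 42.2 (E1-KO), 36.5 and 37.6 (E2-KO) and 46 and 51 (E3-KO). It fell in all 3 groups (-0.62, -0.74 and -0.37, limma-trend adjusted p = 0.00175, 0.000863 and 0.0147). Trp73, which encodes the p53 relative p73, rose in all 3 from a low level, with 2.16 and 2.39 FPKM in WT, against 3.7 and 3.84 (E1-KO), 5.62 and 5.81 (E2-KO) and 9.14 and 7.62 (E3-KO). Its log2 fold changes were 0.55, 1.04 and 1.52. Cdkn2a, the source of the Mdm2 inhibitor ARF and of p16, fell in all 3 (-0.59, -0.66 and -1.03), and so did Prkdc, the catalytic subunit of a DNA damage kinase (-0.56, -0.68 and -0.79). Rchy1, a ubiquitin ligase for p53, also fell (-0.78, -0.47 and -0.47). Hipk2, a kinase that acts on p53 and lies on chromosome 6, was higher in E1-KO (0.75) and in E2-KO (0.65).

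Genes of the cell cycle that p53 lowers through p21 and the DREAM repressor complex were called in both directions in E1-KO and E2-KO. As a description and not a test, falls were about as frequent as over all genes and rises were more frequent. Of 18 tested, 5 rose and 4 fell in each of these groups, with medians of 0.01 and 0.04. The share lower was 22.2% in both, beside 23.0% and 22.0% of all genes, and 15.0% and 14.1% of all genes were higher. In E3-KO 4 rose and 8 fell (44.4% lower, beside 30.8% of all genes lower and 13.9% higher), with a median of -0.14 beside -0.15 over all genes. Under median-ratio scaling 6 rose and 6 fell in E3-KO and the median was 0.03, and under scaling without the 50 highest genes the medians in E1-KO and E2-KO were -0.00 and -0.01. Without either WT replicate 1 rose and 1 fell in E2-KO, and 1 rose in E3-KO. Bub1, a kinase of the spindle checkpoint, fell in all 3 groups (-0.79, -1.03 and -1.34), as did E2f1, a driver of S phase entry (-0.32, -0.47 and -0.76). Cenpa, the centromere histone, fell in E1-KO (-0.60) and E3-KO (-0.90), and Cdc25c, a phosphatase for mitotic entry, in E3-KO (-0.76). Mcm5, a subunit of the replicative helicase, rose in all 3 (0.78, 0.71 and 0.49). Foxm1 fell in E3-KO (-0.81) and lies on chromosome 6.

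**Figure D4:**
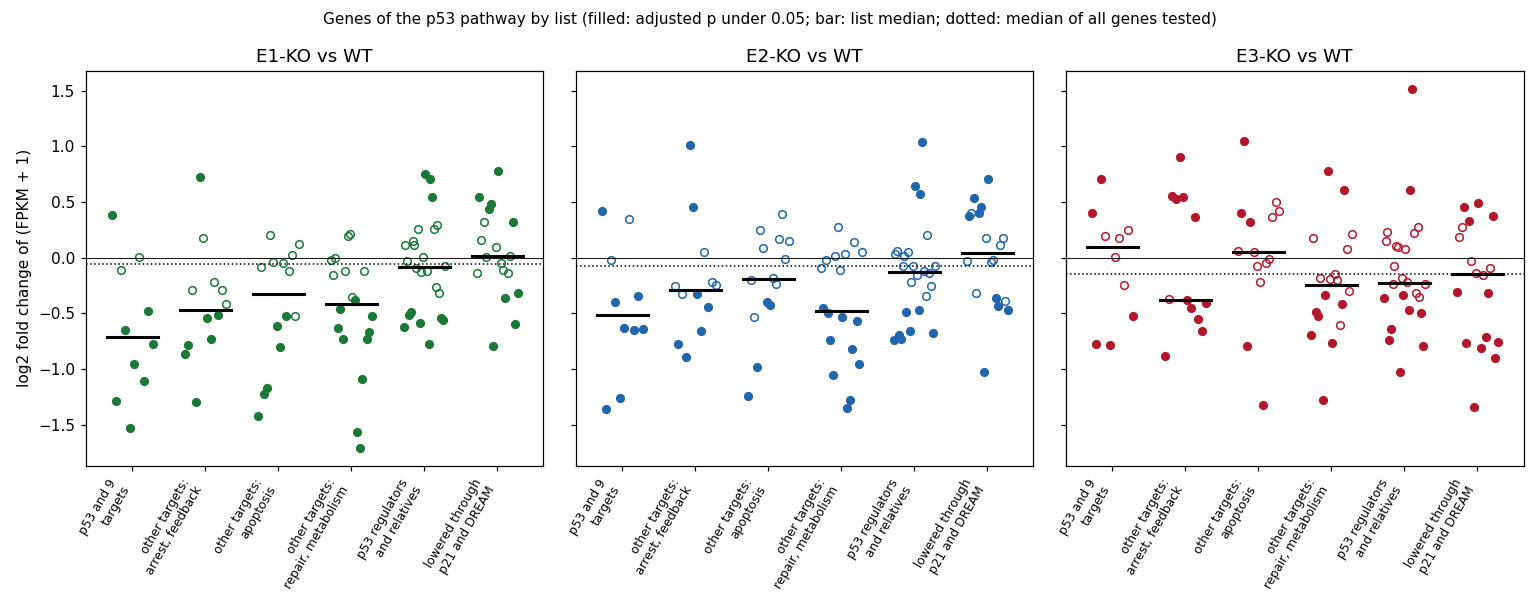
Log2 fold change of FPKM + 1 against WT (y axis, shared) for the genes of each p53 pathway list (x axis), in a panel per knockout group; points are genes, filled where the adjusted p was under 0.05, bars are list medians and the dotted line is the median of all genes tested. The list of p53 and 9 targets has medians of -0.71, -0.52 and 0.09 in E1-KO, E2-KO and E3-KO.

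Replicates within a group also differed in these genes. In E3-KO, replicate 2 was above replicate 1 for 3 of the 10 genes and for 6 of the 44 other targets, beside 42.5% of all genes tested. In E2-KO it was above for 7 of the 10 and 27 of the 44, beside 47.6% of all genes. In WT it was above for 7 of the 10 and 35 of the 44, beside 61.3% of all genes, and in E1-KO for 4 of the 10 and 24 of the 44, beside 51.4%. The median difference of replicate 2 from replicate 1 over the 10 genes was -0.25 in E3-KO and 0.16 in E2-KO on the log2 scale, and -0.02 and 0.01 in E1-KO and WT.

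By pattern over the 8 samples, the genes most like Cdkn1a among 8395 with a mean of at least 5 FPKM were Cryzl2, Dcaf4, Pttg1ip and Hadh (Pearson r 0.993, 0.992, 0.991 and 0.988). Those most like Trp53 were Rpp25, Dtx2, Hist1h2ba and Ppp1r14b (0.990, 0.987, 0.982 and 0.981). These values describe 8 samples in 4 groups that share their group differences, and no test was attached to them.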

How the data were processed

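Total RNA libraries of 8 samples had been sequenced as paired-end reads, per the labels' protocols. The submitters' processing notes name Trimmomatic 0.36, TopHat2 2.0.12, Cufflinks 2.2.1 and build mm9, with no role or order. The authors deposited for each sample an identifier and a value per gene, read here as FPKM made before deposit by steps not given in the sources used here. The unit was inferred from the range of the values and from Cufflinks being among the tools in the submitters' processing notes; no header states it, and no normalization between samples is given in the sources used here. Of 17812 identifiers, 660 had more than 1 row; the row standing between its chromosomal neighbours was kept for 572, and 88 were left out. Symbols came from a gene name table (17262 matched) and chromosomes from GENCODE M21 (GRCm38), whose coordinates were not used for the values.

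Genes averaging 1 FPKM or more were tested on log2(FPKM + 1) with limma 3.58.1 in R 4.3.3 (trend, group as the only term, 4 residual degrees of freedom, two-sided), after a check on simulated data. Named genes were the 10 main ones, Mdm4, and up to 6 called genes per pathway list with the largest absolute change against WT. The genes and lists were chosen with earlier results of these data known. Alternatives covered scaling, filters, pseudocount, repeated rows, the trend, the replicate block, the samples fitted and each left-out sample; leaving out chromosome 6 was added after seeing the data. Figures used matplotlib 3.10.9.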

Additional observations from a re-analysis of the deposited data

Results flagged for a closer look

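The change against WT of several of these genes differed between knockout groups by the direct contrast in limma-trend. Between E3-KO and E1-KO the differences on the log2 scale were 0.51 for Cdkn1a, 0.81 for Mdm2, 0.84 for Ccng1, 0.75 for Trp53inp1, 0.96 for Bbc3, 0.86 for Phlda3 and 0.73 for Sesn2, with limma-trend adjusted p-values between 0.000595 and 0.0372. Between E3-KO and E2-KO they were 0.58 for Cdkn1a, 0.73 for Mdm2, 0.59 for Ccng1, 0.48 for Trp53inp1, 0.64 for Bbc3 and 0.59 for Sesn2, with limma-trend adjusted p-values between 0.00199 and 0.0472. In each of these 13 differences E3-KO was the higher group. Several of these calls were lost in other settings, as given above.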

How the results depend on the processing

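The labels do not say whether same-numbered samples were paired. Deviations of same-numbered samples from their group means correlated at -0.0419 to 0.0891, so no clear shared shift was seen. With 2 samples per group this cannot show that they were unpaired. With the replicate number as a block, 8, 8 and 5 of the 10 genes were called against WT in E1-KO, E2-KO and E3-KO and 6 for the knockout mean, 6 in E3-KO against E1-KO, 4 against E2-KO, and 31 genes in all in E2-KO against E1-KO. The latter count was 1 when these groups were fitted alone, 1 with all genes above 0 tested and 58 with a mean of at least 5 FPKM. For E3-KO against E2-KO, fitting the groups alone called 672 genes, 2 of the 10 among them, and all genes above 0 gave 3 of the 10.

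Without 1 replicate, the genes called numbered 2040 to 2576 (E1-KO), 1870 to 3718 (E2-KO), 2827 to 4557 (E3-KO) and 2584 to 5551 (knockout mean) against WT, 2 to 58 for E2-KO against E1-KO, 1309 to 2611 for E3-KO against E1-KO and 974 to 1552 for E3-KO against E2-KO. Of the 10 main genes, 3 to 7 were called in E2-KO, 3 to 5 in E3-KO and 4 to 8 for the knockout mean, 4 to 7 in E3-KO against E1-KO and 2 to 6 against E2-KO. A lone sample was then assumed to vary like the other groups.

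Signs turned only for values that were not called. Bax in E1-KO was -0.087 after quantile normalization, -0.0080 with scaling without the 50 highest genes and -0.083 to 0.098 without 1 replicate. Mdm2 in E2-KO was 0.055 under median-ratio scaling and -0.076 to 0.025 without 1 replicate, and Bbc3 in E3-KO -0.22 to 0.23. In E2-KO against E1-KO, Trp53 was -0.0068 with scaling without the 50 highest genes, Cdkn1a -0.24 to 0.11 and Zmat3 -0.048 to 0.30 without 1 replicate. In E3-KO, Trp53 without 1 replicate was -0.072 to 0.11 against E1-KO and -0.10 to 0.076 against E2-KO, where it was 0.091, 0.077 and 0.10 under quantile, median-ratio and highest-gene scaling, and Zmat3 against E2-KO was -0.055 to 0.30. Over all alternatives, 938 member fold changes kept direction and call, 73 lost the call, 11 gained one and 18 turned sign; the cause was not tested. Depth is unknown, so what it limits cannot be stated.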
